A study of Mus musculus with 4 samples.

Results

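Cell cycle genes were followed in whole liver of 8-week-old mice as a list of 42 genes taken as given: 11 genes of G1 and its exit, 10 of DNA synthesis and 21 of G2 and mitosis. Each gene was represented by the microarray row whose platform annotation named that gene alone, and by the row with the highest mean where there were several. Of the 42 genes, 41 had such a row, out of 19938 genes in all. Ccnb1, cyclin B1, had none and was not analysed here.

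The samples were 4 pools, each of RNA from 3 livers of mice labelled male, hybridised to 1 array. The genotypes were wild type, MDR2 knockout (MDR2-null), GHR knockout (GHR-null) and the GHR/MDR2 double knockout (double-null). MDR2 is the product of Abcb4, the phosphatidylcholine transporter of the bile canaliculus, whose loss causes cholestatic injury and fibrosis, and GHR is the growth hormone receptor. The question, from the title of the series, was how growth hormone resistance bears on cholestatic fibrosis. Strain, the nature of either null allele and the cells affected are not given in the sources used here. With 1 array a genotype no pairwise difference has a replicate error, and precision is limited by the 4 arrays.

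The targeted genes matched the labels in direction, as Ghr intensity was 4944 in wild type, 4485 in MDR2-null, 1395 in GHR-null and 935 in double-null liver, and Abcb4 was 1120, 663, 1346 and 689 in the same order. Which part of either gene the probes cover is not given. The GHR-null pool went against its sex label: Xist, expressed from the inactive X chromosome of female cells, was 1400 there and 16 to 18 in the other pools, while the Y-linked Eif2s3y stood between 680 and 951 in every pool. Comparisons that use the GHR-null pool are therefore given beside those that do not. Defining hepatocyte genes were high in all pools, with albumin (Alb) between 13255 and 15283. Median intensity over all rows with 1 symbol was 94 to 105 per pool.

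Hepatocytes of an adult liver are mostly quiescent and re-enter the cycle after injury or loss of tissue. Mitogens raise D-type cyclins, which with CDK4 and CDK6 phosphorylate the retinoblastoma family and release E2F factors, and E2F then drives genes of DNA synthesis. Genes of G2 and mitosis come on later and are held down in resting cells by the DREAM complex, which binds a promoter element called the cell cycle genes homology region (CHR), often near CCAAT boxes bound by NF-Y.

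Promoters of 4 members, chosen with their values known, are shown because these genes were among those with higher levels in livers lacking MDR2 and because their windows hold the words of these elements. The sequences are RefSeq's for the build GRCm38.p6 and run 5' to 3' on the gene's strand, from 250 bases before to 20 after the annotated start. Capitals mark the words searched on either strand: TTTGAA for CHR, CCAAT for NF-Y, and TTTCCCGC, TTTGGCGC, TTTGCCGC or TTTCGCGC for E2F. All 4 genes lie on the minus strand, Mcm6 at chr1:128359686-128359955, Ccnb2 at chr9:70421535-70421804, Cdk1 at chr10:69352893-69353162 and Top2a at chr11:99024170-99024439.
Mcm6: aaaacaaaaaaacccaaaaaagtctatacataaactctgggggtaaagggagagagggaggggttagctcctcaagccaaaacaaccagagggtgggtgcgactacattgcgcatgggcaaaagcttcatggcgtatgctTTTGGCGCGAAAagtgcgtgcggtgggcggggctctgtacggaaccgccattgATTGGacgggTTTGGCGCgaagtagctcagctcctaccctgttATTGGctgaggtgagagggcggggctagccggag
Ccnb2: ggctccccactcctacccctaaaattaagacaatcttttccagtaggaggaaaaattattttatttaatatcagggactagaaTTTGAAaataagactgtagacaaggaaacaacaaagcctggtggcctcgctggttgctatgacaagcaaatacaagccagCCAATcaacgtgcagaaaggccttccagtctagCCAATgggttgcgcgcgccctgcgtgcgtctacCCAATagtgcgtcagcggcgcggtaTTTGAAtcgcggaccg
Cdk1: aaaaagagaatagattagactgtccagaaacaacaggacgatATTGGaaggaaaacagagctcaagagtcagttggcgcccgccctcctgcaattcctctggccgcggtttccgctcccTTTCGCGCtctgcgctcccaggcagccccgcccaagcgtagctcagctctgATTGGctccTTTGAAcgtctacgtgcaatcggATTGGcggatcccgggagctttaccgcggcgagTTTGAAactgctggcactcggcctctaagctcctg
Top2a: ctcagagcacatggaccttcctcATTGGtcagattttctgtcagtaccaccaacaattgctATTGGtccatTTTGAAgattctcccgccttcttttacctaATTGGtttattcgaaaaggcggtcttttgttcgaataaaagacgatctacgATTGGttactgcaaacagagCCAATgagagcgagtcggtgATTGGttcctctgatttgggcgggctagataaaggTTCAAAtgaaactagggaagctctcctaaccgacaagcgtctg

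Mcm6, a subunit of the replicative helicase, held 3 E2F words and 2 CCAAT words and no CHR word, the first 2 E2F words overlapping. Ccnb2, cyclin B2, held 3 CCAAT and 2 CHR words, with the second CHR word starting 5 bases into the transcript. Cdk1, the mitotic kinase, held 3 CCAAT words, 2 CHR words and 1 E2F word, and Top2a, the topoisomerase that untangles sister chromatids, held 6 CCAAT and 2 CHR words.

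RefSeq promoters of the full window, 250 bases before to 50 after the start, were at hand for 32 of the 42 listed genes. The others were Ccnd1, Ccnd2, Ccne2, Myc, Mcm4, Ccna2, Aurkb, Foxm1, Kif20a and Tpx2. A CHR word was present in 11 of 16 mitotic members (68.8%), 1 of 9 S phase members and 1 of 7 G1 members, against 20.2% of 27025 genes. An E2F word was present in 4 of 9 S phase members (44.4%), all of them Mcm genes, and in 1 of 16 mitotic members, against 2.60% of all genes. CCAAT words were present in 14 of 16 mitotic and 8 of 9 S phase members, against 41.1% of all genes. In the mitotic group, the 11 measured members with a CHR word had a median difference of 0.54 (log2) between the MDR2-null and wild-type pools, and the 4 without it 0.28. Between the double-null and GHR-null pools these medians were 0.28 and 0.20. The 2 sets were not matched for level: all 4 without the word stayed below an intensity of 100, while Ccnb2, Cdk1 and Aurka with it reached 100. In the S phase group the 4 members with an E2F word had medians of 0.44 and 0.24 in these comparisons, and the 5 without it 0.05 and 0.35. A word match is a description of the sequence and not evidence of a bound site.

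Intensities came from probe sets with unlike probes, so a single gene was compared only with itself across pools. The sums over gene lists given further below add such unlike intensities and are weighted toward the genes with high values. Where 4 values follow a gene without labels, wild type comes first, MDR2-null second, then GHR-null and last the double-null pool. In all, 19 of the 41 measured members stayed below an intensity of 100, close to the median of all rows, on all 4 arrays: 1 of 11 G1, 2 of 10 S phase and 16 of 20 mitotic members. Of all 19938 genes 9174 did so, a share close to that of the 41 members together. Nearest to that level were Cdc20, with a highest value of 97, and Aurka, with one of 107. No detection calls were used here, so a fold between values below 100 was not shown to be above background.

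**Figure D1:**
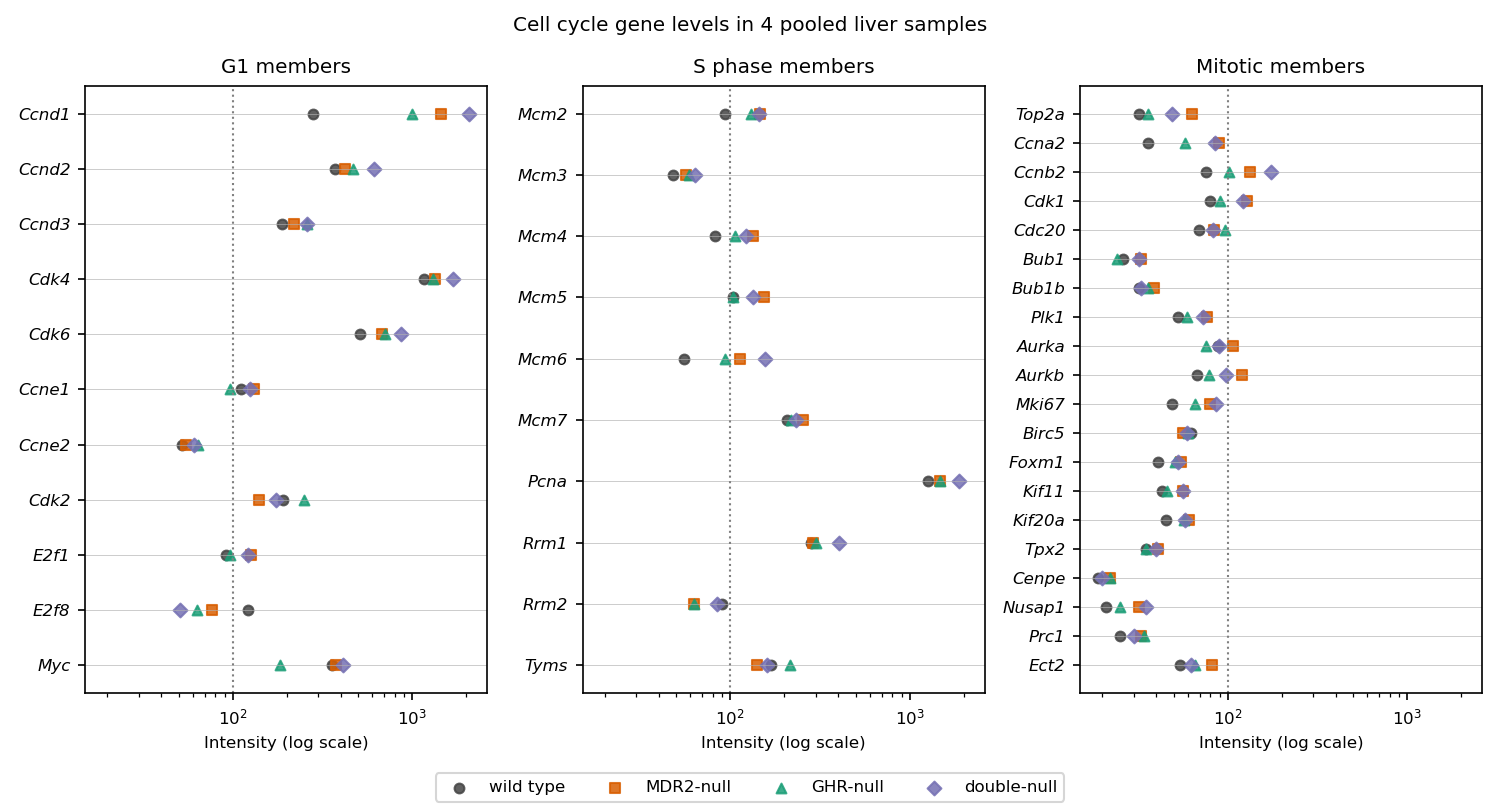
Intensity on a log axis of the 41 measured members in each of the 4 genotypes, 1 point per pool and no error bars because each genotype had 1 array; the dotted line is 100. The wild-type point of Ccnd1 lies at 280 and its double-null point at 2065, and 16 of the 20 mitotic members lie left of the line in all pools.

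When GHR was present, members of all 3 phases were mostly higher in the MDR2-null pool than in wild type. In whole tissue, more cells of a type and more RNA per cell cannot be told apart. At least 1.5-fold higher were 13 of 41 members, against 4.15% of all genes, and 1 was at least 1.5-fold lower, against 2.04%. Members above their wild-type level numbered 36 of 41, while 50.2% of all genes were above theirs. The median log2 difference was 0.21 for G1, 0.27 for S phase and 0.43 for mitotic members, and 0.00 for all genes. When GHR was absent, the double-null pool compared with GHR-null gave medians of 0.33, 0.27 and 0.26, with 4 of 41 members at least 1.5-fold higher, against 6.54% of all genes, and none lower, against 5.71%. The 2 comparisons share no array. Higher in both were 30 of 41 members, against 29.5% of all genes. In 24 members both pools without MDR2 lay above both pools with it, against 20.0% of all genes, and in 3 both lay below, against 21.9%.

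**Figure D2:**
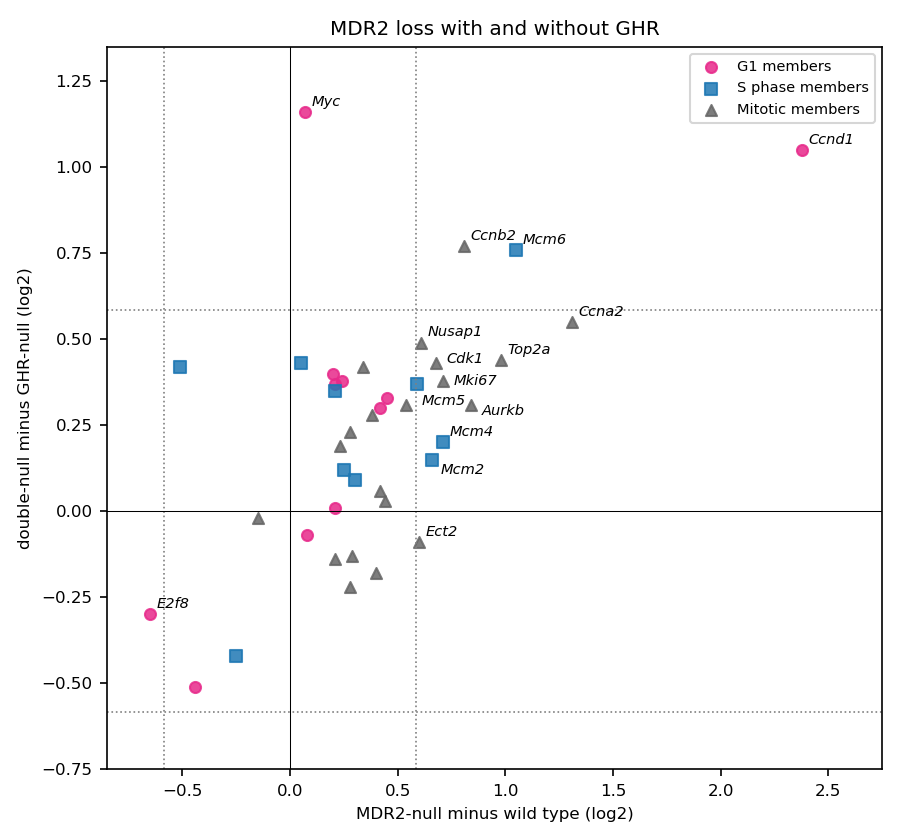
Log2 difference of each measured member between the MDR2-null and wild-type pools (x axis) and between the double-null and GHR-null pools (y axis), with 1.5-fold as dotted lines and names where a member passed it on either axis. Ccnd1, Mcm6 and Ccnb2 lie beyond 1.5-fold on both axes, and Myc on the y axis alone.

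Among the G1 members, cyclin D1 stood apart. Ccnd1, the mitogen-sensing partner of CDK4 and CDK6, was 280 in wild type, 1456 in MDR2-null, 997 in GHR-null and 2065 in double-null liver. The wild-type pool was the lowest and the double-null the highest, and every pool lacking MDR2 lay above every pool that had it. The MDR2-null pool was 5.2-fold above wild type, and the double-null pool 2.07-fold above GHR-null. The related cyclins differed less, Ccnd2 being 370, 424, 465 and 614 and Ccnd3 188, 218, 259 and 260 in that order of pools.

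The partner kinases were less than 1.5-fold apart with the loss of either gene, and Cdk6 passed that between double-null and wild type. Cdk4 was 1158, 1344, 1310 and 1695 and Cdk6 was 509, 681, 703 and 867 in that order of pools. In both, wild type was the lowest and double-null the highest pool. Cdk2, the kinase that cyclin E activates, went the other way with MDR2 loss: it was 190 in wild type and 140 in MDR2-null liver, and 249 in GHR-null and 175 in double-null liver. Its partner Ccne1 was 111, 131, 96 and 125 over the 4 pools, higher wherever MDR2 was lost, and Ccne2 ranged from 52 to 64.

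The transcription factors of the G1 group differed from each other. E2f1, an activator of S phase genes, was 92, 126, 96 and 121, so both pools without MDR2 lay above the others. E2f8, a repressor of E2F target genes, was 121 in wild type, 77 in MDR2-null, 63 in GHR-null and 51 in double-null liver. It was lowest where both genes were lost, 2.37-fold below wild type, and was the member at least 1.5-fold lower with MDR2 loss. Myc, a growth-promoting factor and early responder to injury, was 358, 377, 183 and 409. Only the GHR-null pool stood apart among the 4 for Myc, 1.96-fold below wild type, so the 2.23-fold difference between double-null and GHR-null rests on the pool that carried Xist.

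In the S phase group 4 of the 6 helicase subunits, Mcm2, Mcm4, Mcm5 and Mcm6, were the members at least 1.5-fold apart in any comparison. Mcm6 was 55 in wild type, 114 in MDR2-null, 93 in GHR-null and 157 in double-null liver, 2.07-fold higher with MDR2 loss alone and 1.69-fold higher without GHR. Mcm2 was 93, 147, 131 and 145, Mcm4 82, 134, 106 and 122, and Mcm5 103, 155, 104 and 134. These 3 were 1.5-fold to 1.63-fold higher in the MDR2-null than in the wild-type pool and 1.11-fold to 1.29-fold higher in the double-null than in the GHR-null pool. Mcm7 stood at 206, 253, 218 and 232, and Mcm3 lay below 100 throughout, from 48 to 64. For all 6 subunits the wild-type pool was the lowest.

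Outside the helicase the S phase genes did not share 1 pattern. Pcna, the sliding clamp of DNA polymerase, was 1272, 1470, 1472 and 1871, and its other row gave 1249, 1442, 1442 and 1822. Rrm1, the large subunit of ribonucleotide reductase, was 280, 290, 300 and 405, with only the double-null pool apart from the rest. The small subunit Rrm2, below 100 in every pool, was 90 in wild type, 63 in MDR2-null, 63 in GHR-null and 84 in double-null liver. Either single loss thus went with 1.43-fold lower Rrm2 and the double loss did not. Tyms, thymidylate synthase, was 168, 141, 216 and 161, lower with MDR2 loss in both backgrounds.

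The mitotic group held 8 of the 13 members at least 1.5-fold higher in the MDR2-null than in the wild-type pool. Of these, 5 stayed below 100 on all arrays, and among all 9174 genes below 100 throughout 1.36% were that much higher. Ccnb2 was 76 in wild type, 133 in MDR2-null, 102 in GHR-null and 174 in double-null liver, 1.75-fold higher with MDR2 loss alone and 1.71-fold higher without GHR. Cdk1 was 80, 128, 90 and 121, and Aurkb, the kinase of the chromosomal passenger complex, was 67, 120, 79 and 98. In all 3 genes both pools without MDR2 lay above both pools that had it. Aurka, the centrosomal kinase, was 88, 107, 76 and 89.

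Below 100, cyclin A2 gave the largest difference of the group. Ccna2 was 36 in wild type, 89 in MDR2-null, 58 in GHR-null and 85 in double-null liver, a 2.47-fold difference for MDR2 loss alone. Top2a was 32, 63, 36 and 49, and Mki67, the proliferation marker Ki-67, was 49, 80, 66 and 86. Nusap1, a spindle protein, was 21, 32, 25 and 35, and Ect2, needed for cytokinesis, was 54, 82, 66 and 62. For Ccna2, Top2a, Mki67 and Nusap1 both pools without MDR2 lay above both with it, while for Ect2 the double-null pool lay below the GHR-null pool. The second Top2a row ranged from 9 to 11.

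The other 12 mitotic members, Aurka among them, were less than 1.5-fold apart in all 5 comparisons, and all but Aurka stayed below 100. They included the checkpoint kinases Bub1 and Bub1b, the polo kinase Plk1, the anaphase activator Cdc20, the transcription factor Foxm1, the motors Kif11, Kif20a and Cenpe, the spindle proteins Tpx2 and Prc1, and the passenger subunit Birc5. Plk1 came closest, at 53, 77, 59 and 73. Birc5 differed in direction, at 62, 56, 60 and 59. It was the mitotic member below its wild-type value in the MDR2-null pool.

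**Figure D3:**
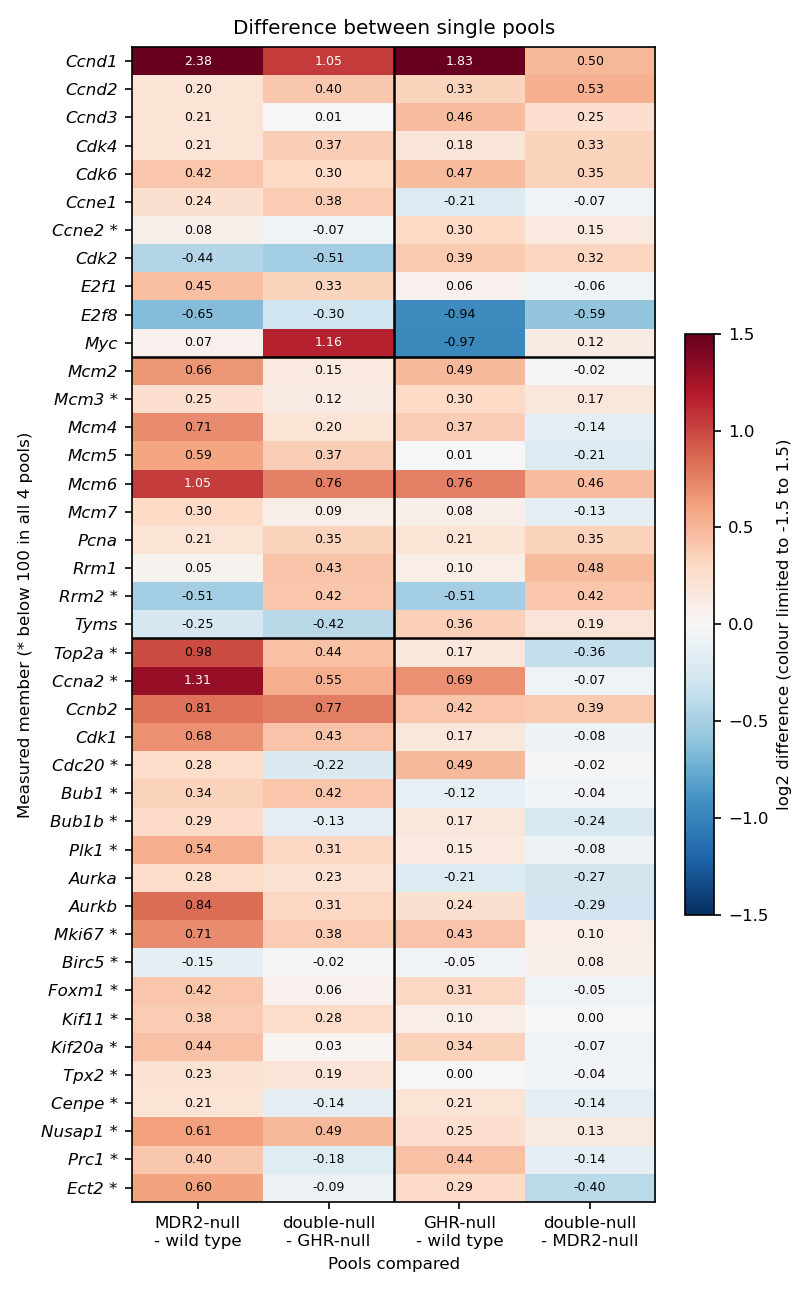
Log2 difference between single pools for each measured member, with MDR2 loss in the left pair of columns and GHR loss in the right pair; horizontal lines part the G1, S phase and mitotic members, and an asterisk marks members below 100 in all pools. Red fills most of the first column, from -0.65 for E2f8 to 2.38 for Ccnd1, while the mitotic cells of the last column lie between -0.40 and 0.39.

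The only test the layout allowed was a limma fit of the log2 values with MDR2 and GHR status as additive factors over all 4 arrays, with Benjamini-Hochberg adjustment over 10764 genes that reached 100 on at least 1 array. It takes each effect as equal in both backgrounds, and its error comes from the departure from that on 1 residual degree of freedom, not from replicate livers. Of the 41 measured members 22 entered the fit. For MDR2 loss 2 were called higher at an adjusted p under 0.05, against 2.99% of all genes tested, and 0 lower, against 0.762%. Mcm6 rose by 0.90 ± 0.15 (log2 ± SE, limma adjusted p = 0.0451) and Ccnb2 by 0.79 ± 0.14 (limma adjusted p = 0.0492), each in both backgrounds. Neither call held on the log2 values after cyclic loess between arrays, where limma gave adjusted p values of 0.0618 and 0.0631.

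Ccnd1 had a larger effect of MDR2 loss, 1.71 ± 0.32, and missed the threshold (limma adjusted p = 0.0539), with differences of 2.38 when GHR was present and 1.05 when it was absent. Cdk1 and Aurkb had effects of 0.55 ± 0.15 and 0.58 ± 0.18, with limma adjusted p values of 0.108 and 0.139. Without adjustment 9 of 22 members were higher and 2 lower at p under 0.05 in limma, against 12.3% and 11.4% of all genes tested. Without the GHR-null pool the fit has no residual degree of freedom, and the MDR2-null against wild-type values above are what stays.

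With MDR2 present, the GHR-null pool compared with wild type gave medians of 0.30 for G1, 0.25 for S phase and 0.22 for mitotic members, and 0.05 for all genes. With arrays centred on their median over genes that reached 100, these medians were 0.18, 0.13 and 0.10 and that of all genes -0.07. At least 1.5-fold higher were 3 of 41 members, against 2.59% of all genes, and 2 were lower, against 1.67%. After that centring 2 were higher and 3 lower. The higher were Ccnd1 at 3.56-fold, Mcm6 at 1.69-fold and Ccna2 at 1.61-fold, and the lower were E2f8 and Myc at 1.92-fold and 1.96-fold. All these values rest on the pool that carried Xist.

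The double-null pool compared with MDR2-null gives loss of GHR without that pool, and fewer members were 1.5-fold apart. No member was at least 1.5-fold higher, against 4.48% of all genes, and 1 was lower, against 2.32%: E2f8, which went from 77 to 51. This count was 0 after cyclic loess (E2f8 at -0.55), and after centring on hepatocyte markers it was 1 higher (Ccnd2 at 0.61) and 0 lower. The G1 and S phase medians were 0.25 and 0.18, with Ccnd2 at 1.45-fold, Ccnd1 at 1.42-fold, Rrm1 at 1.40-fold and Mcm6 at 1.38-fold. The mitotic median was -0.07, equal to the median of -0.07 of all genes below 100 on every array, and it was 0.00 after cyclic loess, 0.01 after centring on hepatocyte markers and -0.16 after centring on genes that reached 100. That last centring also lowered the G1 median to 0.16 and the S phase median to 0.09, with all genes at -0.09. In the limma fit 0 of 22 members were called for GHR loss in either direction, against 0.204% of genes called higher and 0.316% called lower. Without adjustment limma had 6 members higher and 1 lower at p under 0.05, against 9.53% and 3.52% of all genes tested. The lower one was E2f8 at -0.77 ± 0.16 (limma adjusted p = 0.181).

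Against wild type, the double-null pool combined these differences. At least 1.5-fold higher were 11 of 41 members, against 8.69% of all genes, and 1 was lower, against 4.45%. Of the 11, 4 were below 100 on all arrays, where 3.14% of all such genes were that much higher. Ccnd1 was 7.37-fold, Mcm6 2.85-fold, Ccna2 2.36-fold and Ccnb2 2.29-fold higher, and Cdk6 and Ccnd2 reached 1.70-fold and 1.66-fold only in this comparison among the 5. The medians were 0.40, 0.47 and 0.37 for G1, S phase and mitotic members, and 0.00 for all genes.

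Whether the losses added up on the log2 scale was read from the difference of the differences, which has no test here. Over genes reaching 100 its robust SD was 0.325, and over genes below 100 it was 0.242, which describes a typical gene and is no limit for a single one. Ccnd1 stood at -1.33, so the double-null pool was below the sum of the single differences although it was the highest pool. Ccna2, at -0.75, reached about the same value in the double-null as in the MDR2-null pool. Myc was at 1.09 and Rrm2 at 0.93, both with lower values in the GHR-null than in the double-null pool. The 20 mitotic members had a median of -0.34, where the median of all genes below 100 was -0.057 and that of genes reaching 100 was -0.035. All these values use the GHR-null pool.

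Other cycle genes were read from lists of the same pathways. Of 43 further genes of mitosis, 40 were above and 1 below their wild-type value in the MDR2-null pool, with a median of 0.20 against 0.06 for all genes below 100. Above their wild-type value were 50.2% of all genes and 55.7% of those below 100. At least 1.5-fold higher were 3, against 4.15% of all genes and 1.36% of those below 100, among them the checkpoint gene Mad2l1 at 84, 151, 134 and 139, and 35 of the 43 lay below 100 on all arrays. Between the double-null and GHR-null pools 29 were above and 8 below, where 42.8% of all genes and 42.0% of those below 100 were above. None of the 8 tested was called for MDR2 loss in limma, against 2.99% of all genes tested called higher and 0.762% lower. Without adjustment 0 reached a limma p under 0.05, against 12.3% of all genes higher and 11.4% lower.

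Further genes of DNA replication had no shared direction. Of 40, 20 were above and 19 below their wild-type value in the MDR2-null pool, with a median of 0.00, where 50.2% of all genes were above. Lig1, the DNA ligase that joins Okazaki fragments, was 62, 113, 87 and 115, and Chaf1b, a chromatin assembly factor, was 67, 100, 79 and 107. In both, the pools without MDR2 were the higher ones. Mcm10, a replication initiation factor, was 245, 134, 100 and 74, lowest in the double-null pool as E2f8 was. In limma 0 of the 22 tested were called for MDR2 loss, against 2.99% of all genes tested called higher and 0.762% lower. At an unadjusted limma p under 0.05, 2 were higher and 2 lower, no larger a share than the 12.3% and 11.4% of all genes.

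Among the retinoblastoma, DREAM and E2F genes 1 gave a large difference. Mybl1, a MYB family transcription factor, was 24 in wild type, 195 in MDR2-null, 40 in GHR-null and 130 in double-null liver, a rise of 2.36 ± 0.32 with MDR2 loss (limma adjusted p = 0.0325). Its differences were 3.02 when GHR was present and 1.70 when it was absent, although the fit takes the effect as equal. Mybl1 was the only one of 14 tested genes of this list called for MDR2 loss, against 2.99% of all genes tested called higher. Rbl1, the pocket protein p107, was 92, 159, 102 and 134. Tfdp2 was 412, 280, 388 and 424 and Lin54 was 227, 156, 259 and 214, both lowest in the MDR2-null pool. The list median for MDR2 loss alone was -0.03.

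Of the inhibitors of cyclin-dependent kinases 7 of 8 were measured, and none was 1.5-fold apart with either loss alone. With MDR2 loss alone 4.15% of all genes were that much higher and 2.04% lower. With GHR loss alone these shares were 2.59% and 1.67%. Cdkn1b (p27) was 395, 335, 392 and 456, and Cdkn2c (p18) was 182, 230, 258 and 310, which was 1.70-fold higher in the double-null than in the wild-type pool. Cdkn1c reached 110, and Cdkn2a, Cdkn2b, Cdkn2d and Cdkn3 stayed below 100. Cdkn1a (p21) shares its row with another symbol and was not analysed here. The list of cycle ubiquitin genes had a median of 0.08 for MDR2 loss alone, and Skp2, which marks p27 for degradation, was 99, 111, 96 and 121.

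Immediate early genes, which precede cyclin D1 when hepatocytes leave rest, counted 3 of 10 at least 1.5-fold higher when MDR2 was lost alone, against 4.15% of all genes, and 4 of 10 when it was lost without GHR, against 6.54%. Jun was 439, 934, 289 and 1389, and Atf3, a stress-induced factor, was 84, 210, 118 and 296. In both genes the pools without MDR2 were the highest. For MDR2 loss Jun rose by 1.68 ± 0.29 and Atf3 by 1.32 ± 0.14 in the limma fit (limma adjusted p = 0.0486 and 0.0235). The fit takes the effect as equal in both backgrounds. For Jun the differences were 1.09 when GHR was present and 2.26 when it was absent, for Atf3 1.32 and 1.33. The larger Jun difference uses the GHR-null pool that carried Xist, where Jun was lowest. Egr1 was 112, 201, 310 and 480 and rose with GHR loss by 1.36 ± 0.14 (limma adjusted p = 0.0375).

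Markers of some other liver cells also differed between the pools. Summed macrophage marker intensity (11 of 12 genes measured) was 3849 in wild type, 8737 in MDR2-null, 5231 in GHR-null and 12222 in double-null liver. Of this, Lyz2 alone gave 847, 2879, 977 and 5243. With MDR2 loss 9 of 11 markers were at least 1.5-fold higher in each background, against 4.15% of all genes with GHR and 6.54% without. Where GHR was absent 1 was that much lower, against 5.71%: Clec4f, at 993 in GHR-null and 628 in double-null liver. Cd5l was lower there too, at 637 and 468. The cholangiocyte sum (9 of 11) was 1165, 1657, 1290 and 2913, of which Onecut2 alone gave 617, 659, 635 and 611. The stellate sum (10 of 10) was 2713, 3872, 3408 and 4599. Over the same pools the G1 members summed to 3429, 5029, 4485 and 6443, of which Ccnd1 alone gave 280, 1456, 997 and 2065. The S phase members summed to 2397, 2824, 2762 and 3375, of which Pcna alone gave 1272, 1470, 1472 and 1871. The mitotic members summed to 953, 1391, 1119 and 1336. The 3 marker sums and the G1 and S phase sums were highest in the double-null pool, and the mitotic sum was highest in the MDR2-null pool.

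Hepatocyte markers (9 of 12) summed to 85962, 82386, 83237 and 81930, and endothelial markers (10 of 10) to 5709, 6191, 7128 and 5774. Many lymphocyte and neutrophil markers were low: 10 of 11 T and NK cell, 4 of 6 B and plasma cell and 7 of 8 neutrophil genes stayed below 100 in all pools. Of all 19938 genes 9174 did so. The plasma cell gene Jchain was 53, 88, 91 and 289. Of the 6 B and plasma cell genes it alone was higher in the double-null than in the wild-type pool, and 5 were lower. Among all genes 46.0% were higher there. Erythroid markers (7 of 8) summed to 1909, 1854, 1062 and 1100, of which Alas2 alone gave 1340, 1161, 436 and 279. Against wild type, 4 of the 7 were higher and 3 lower in the GHR-null pool. In the double-null pool 5 were higher and 2 lower. Of all genes 55.8% and 46.0% were higher in these 2 comparisons. The lowest value of any marker was 11, where the lowest of the whole array table was 6, and a value above 0 is not a detection. The part of any of these cell types in the cell cycle levels was not tested.

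**Figure D4:**
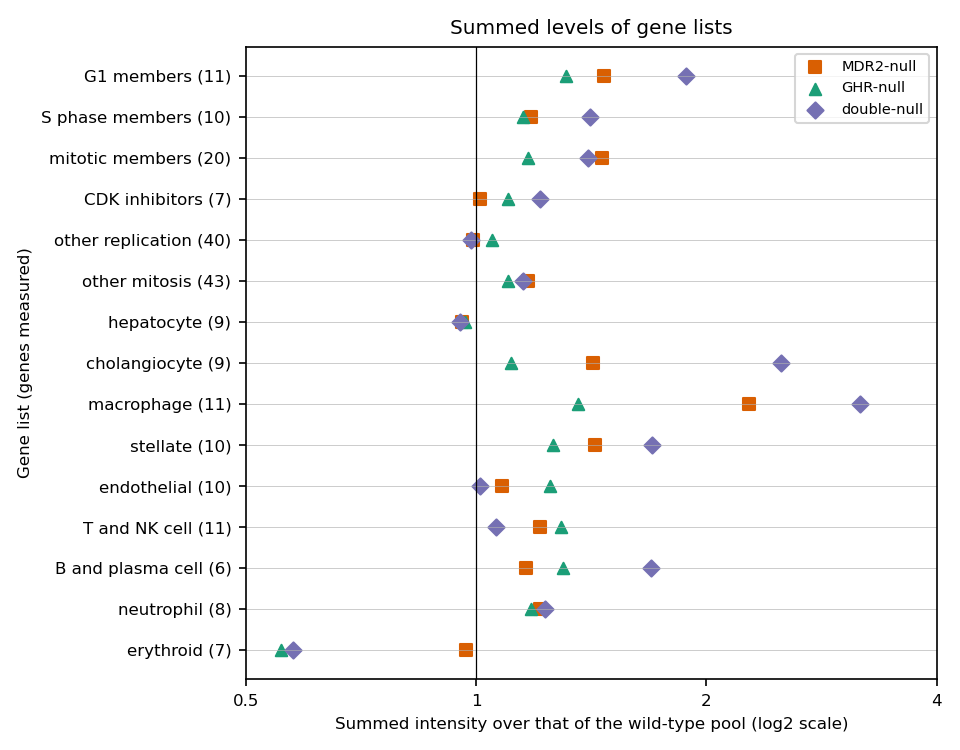
Summed intensity of each gene list over that of the wild-type pool, on a log2 axis, for the MDR2-null, GHR-null and double-null pools, with the number of genes measured in brackets; each point is 1 pool, so there are no error bars. G1 members reach 1.88 and macrophage markers 3.18 in the double-null pool, while hepatocyte markers stay between 0.953 and 0.968 in the 3 pools. Each sum is weighted toward its genes of high intensity, and within the G1 sum Ccnd1 alone goes from 280 in wild type to 2065 in double-null liver.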

How the data were processed

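The deposited intensity values of 4 Affymetrix mouse arrays were used, 1 for each genotype. Per the submitters' processing notes they came from RMA in Affymetrix Expression Console 1.1, and in the deposited table they are whole numbers from 6 to 22355, so on a linear scale. The authors' normalization was kept and log2 was taken. For the probe sets, a genome build was not given in the sources used here. Of 35556 rows, 21789 had 1 gene symbol in the platform annotation, 1621 several and 12146 none. Rows without exactly 1 symbol were left out, and 21698 rows matched a RefSeq gene identifier.

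The members and lists were chosen with earlier results of these data known. Named with all 4 values were members that reached 100 or were 1.5-fold apart in any comparison, up to 4 genes of each other cycle list with the largest difference for MDR2 loss alone among those reaching 100, and up to 3 markers of a cell type by mean level. All measured CDK inhibitors were named. Rrm2, Plk1 and Birc5, printed with all 4 values, fall outside this rule and were chosen after their values were seen. Pairwise differences have no test. limma 3.58.1 (R 4.3.3; lmFit and eBayes, prior degrees of freedom 4.34) was checked on simulated data. Nothing says how the 3 livers of a pool varied. Alternatives were other level filters, a 2-fold threshold, cyclic loess, 2 centrings, averaging the rows of each gene and eBayes with trend and robust settings. Promoter words were searched in 32851 RefSeq promoter entries (GRCm38.p6), and a gene counted where any entry held the word.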

Additional observations from a re-analysis of the deposited data

Results flagged for a closer look

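In 3 members the same loss went with differences of opposite sign in the 2 backgrounds, at least 1.5-fold in 1 of them. Each pair is 2 differences between single arrays and includes the GHR-null pool, and the gap between them was not tested. Myc was lower with GHR loss when MDR2 was intact (-0.97, log2) and higher when it was not (0.12), a gap of 1.09. Ccna2 was higher with GHR loss when MDR2 was intact (0.69) and near its level when it was not (-0.07), a gap of -0.75, and that last sign turned to 0.01 with centring on hepatocyte markers. Ect2 was higher with MDR2 loss when GHR was intact (0.60) and slightly lower when it was not (-0.09), a gap of -0.69, with all its values below 100.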

How the results depend on the processing

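No paired analysis was possible because each genotype was 1 array. Members at least 1.5-fold apart numbered 14 for MDR2-null against wild type, 5 in GHR-null against wild type, 1 in double-null against MDR2-null, 4 in double-null against GHR-null and 12 in double-null against wild type. With a 2-fold threshold these became 3, 1, 0, 2 and 5. With only members whose higher array reached 100, they became 9, 3 and 0 in the first 3 comparisons and stayed within 1.5 times in the others. Cyclic loess left 0 in double-null against MDR2-null. There centring on hepatocyte markers kept a count of 1, but higher in place of lower. Other scalings and the mean of rows kept all counts within 1.5 times. In the limma fit the 2 members called for MDR2 loss became 0 without the level filter, with a filter at the 75th percentile (329), with cyclic loess and with hepatocyte centring, 1 with trend and robust settings (Ccnb2) and 1 with median centring (Mcm6), and were joined by Ccnd1 with the mean of rows, where its limma adjusted p was 0.0454. Without the level filter the limma adjusted p was 0.327 for both Mcm6 and Ccnb2, and the 75th percentile filter left both untested. Their effects were 0.86 to 0.95 and 0.77 to 0.84 in the settings that tested them. For GHR loss no setting called a member. Rounding to whole numbers makes differences between low intensities coarse, and no detection calls were used.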
